A study of Mus musculus with 32 samples.

Results

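The comparison described here is secretory activation in the mouse mammary gland, the step from late pregnancy into the first days of milk secretion. It set 4 arrays of lactation day 2 (LD2) against 4 arrays of pregnancy day 17 (PD17), 8 of the 32 arrays in the series, chosen by their titles. All 8 samples were whole mammary tissue of FVB mice, an inbred laboratory strain, fed normal laboratory chow and carrying no engineered allele that the labels name. Their ages are not given. The LD2 group was nursing dams and the PD17 group pregnant dams, each with 4 samples, which the labels describe as taken and lysed individually. They do not say that the 4 samples came from separate litters or days, so p-values measure the spread between these samples. The other 3 stages of the time course were pregnancy day 12 (PD12) and lactation days 1 and 9 (LD1 and LD9), with 4 arrays each. They entered the statistical fit to estimate the spread, and they helped decide which probe sets were bright enough to be tested.

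During late pregnancy the alveolar epithelium already makes many milk proteins, while high progesterone holds back secretion and the junctions between cells are leaky. After birth progesterone falls, prolactin and glucocorticoid act without that brake, the junctions close, and the cells begin to release milk fat, lactose, protein, calcium and phosphate in bulk. The gland also holds fat cells, fibroblasts, myoepithelial cells, vessels and immune cells, and all of them contribute RNA to a whole-tissue sample.

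Levels are given as log2 intensity of a probe set, the group of oligonucleotides on the array that reports a transcript. Changes are log2 differences, LD2 minus PD17, so that 1 is a doubling. Since probe sets differ in brightness, levels were compared between stages and never between genes. Arrays of a stage resembled each other: the correlation between arrays ran from 0.983 to 0.990 within LD2, from 0.975 to 0.989 within PD17 and from 0.918 to 0.949 between the stages. The dim end of the arrays differed, since the 25th percentile of intensity was 9.08 to 9.59 on the LD2 arrays and 7.84 to 8.61 on the PD17 arrays. The median of all probe sets moved by 0.04. With the array medians set equal it moved by -0.15, and with the ribosomal protein probe sets set equal by 0.38, so small changes of whole groups depend on the scaling. With 4 arrays in each group, that number sets the limit on precision.

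The step touched a large share of the transcriptome. Of 7189 probe sets bright enough to be tested, 3589 (49.9%) passed limma's moderated test at a Benjamini-Hochberg adjusted p under 0.05. Of these, 1830 (25.5% of those tested) were higher and 1759 (24.5%) lower at LD2. Changes of at least 2-fold were seen for 744 probe sets (10.3%), 240 of them higher (3.34%) and 504 lower (7.01%). This split of the large changes reversed with ribosomal probe sets set equal, to 520 higher and 236 lower. With array medians set equal it was 158 higher and 741 lower. The split of all calls turned on the scaling: with array medians set equal 861 were higher and 2301 lower, and with ribosomal probe sets set equal 3560 were higher and 822 lower. The 4 LD2 values lay entirely above or below the 4 PD17 values for 3614 probe sets (50.3%), with 2092 above (29.1%) and 1522 below (21.2%). Counted by gene, with 1 probe set for each of 5480 tested genes, 2712 passed (49.5%), of which 1323 rose (24.1% of those tested) and 1389 fell (25.3%), and the median change was 0.02. Among the 1827 dimmest of these genes 36.0% rose and 11.9% fell, while among the 1827 brightest 19.5% rose and 37.1% fell. The counts of list members below are to be read against these shares.

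**Figure D1:**
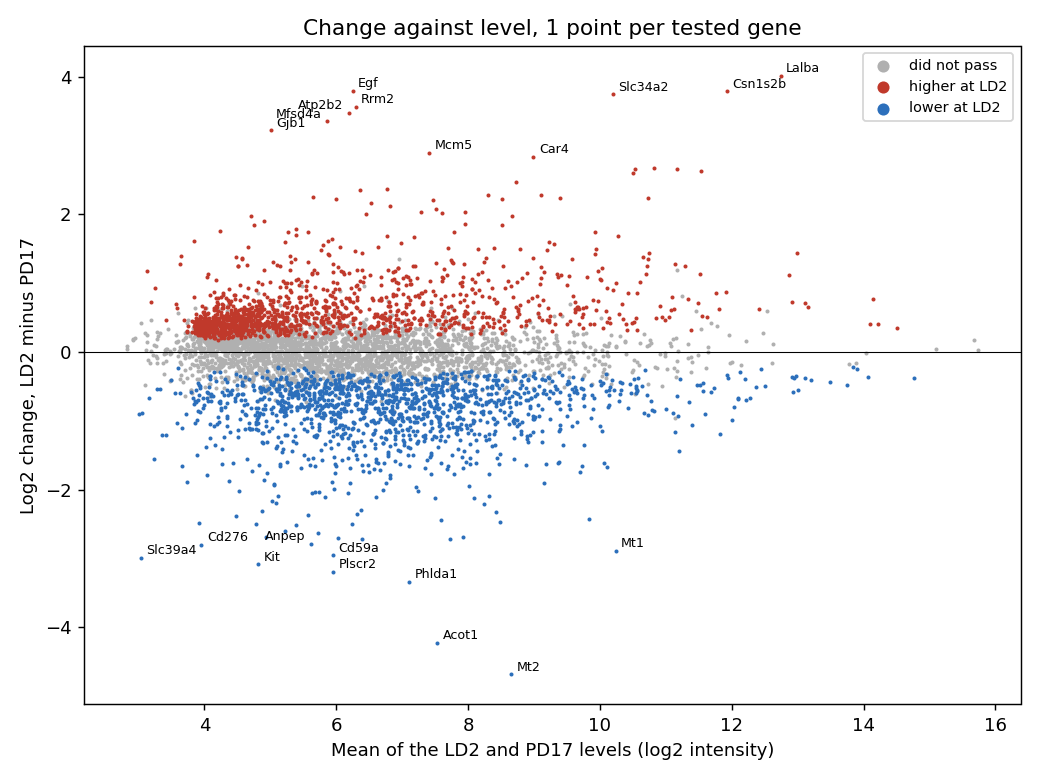
Each point is 1 of the 5480 tested genes, with the mean of its LD2 and PD17 log2 levels on the horizontal axis and the log2 change, LD2 minus PD17, on the vertical axis. Red points rose, blue points fell and grey points did not pass the test; the genes with the 10 largest rises and the 10 largest falls are labelled, from Lalba at 4.01 to Mt2 at -4.69.

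The 10 largest rises with no overlap between the stages were those of Lalba, Egf, Csn1s2b, Slc34a2, Rrm2, Atp2b2, Mfsd4a, Gjb1, Mcm5 and Car4, and they are described with their groups below. The 10 largest falls were those of Mt2, Acot1, Phlda1, Plscr2, Kit, Slc39a4, Cd59a, Mt1, Cd276 and Anpep. Acot1, a cytosolic thioesterase that splits long-chain acyl-CoA, had log2 levels of 5.09, 6.33, 5.35 and 4.90 at LD2, against 9.26, 9.84, 9.81 and 9.67 at PD17. The groups were far apart, and the log2 change was -4.23 ± 0.23 (SE; adjusted p = 2.16e-10). Kit, the receptor of stem cell factor, which marks luminal progenitors and mast cells, had log2 levels of 3.22, 3.29, 3.32 and 3.25 at LD2, against 6.79, 5.73, 6.12 and 6.80 at PD17. Every LD2 value was below the test line of 4.22, so the log2 change of -3.09 ± 0.21 (adjusted p = 2.71e-09) ends at the dim end of the scale. Phlda1, a growth-factor-inducible gene, fell to a mean log2 level of 5.44 ± 0.46 at LD2, against 8.78 ± 0.24 at PD17 (SD, n = 4 each), a change of -3.34 (adjusted p = 1.95e-07). Anpep, the cell-surface aminopeptidase N, fell to 4.22 ± 0.27 at LD2, against 7.01 ± 0.08 at PD17 (log2 change -2.79, adjusted p = 3.72e-09). Plscr2, Cd59a, an inhibitor of complement lysis, and Cd276, an immune checkpoint ligand, changed by -3.19, -2.95 and -2.80, and the LD2 mean of Cd276 was 2.55 ± 0.30, below the test line. Mfsd4a, a transporter-like membrane protein, rose in all 4 arrays to a mean log2 level of 7.53 ± 0.21 at LD2, against 4.19 ± 0.27 at PD17 (log2 change 3.35 ± 0.14, adjusted p = 3.91e-12).

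**Figure D2:**
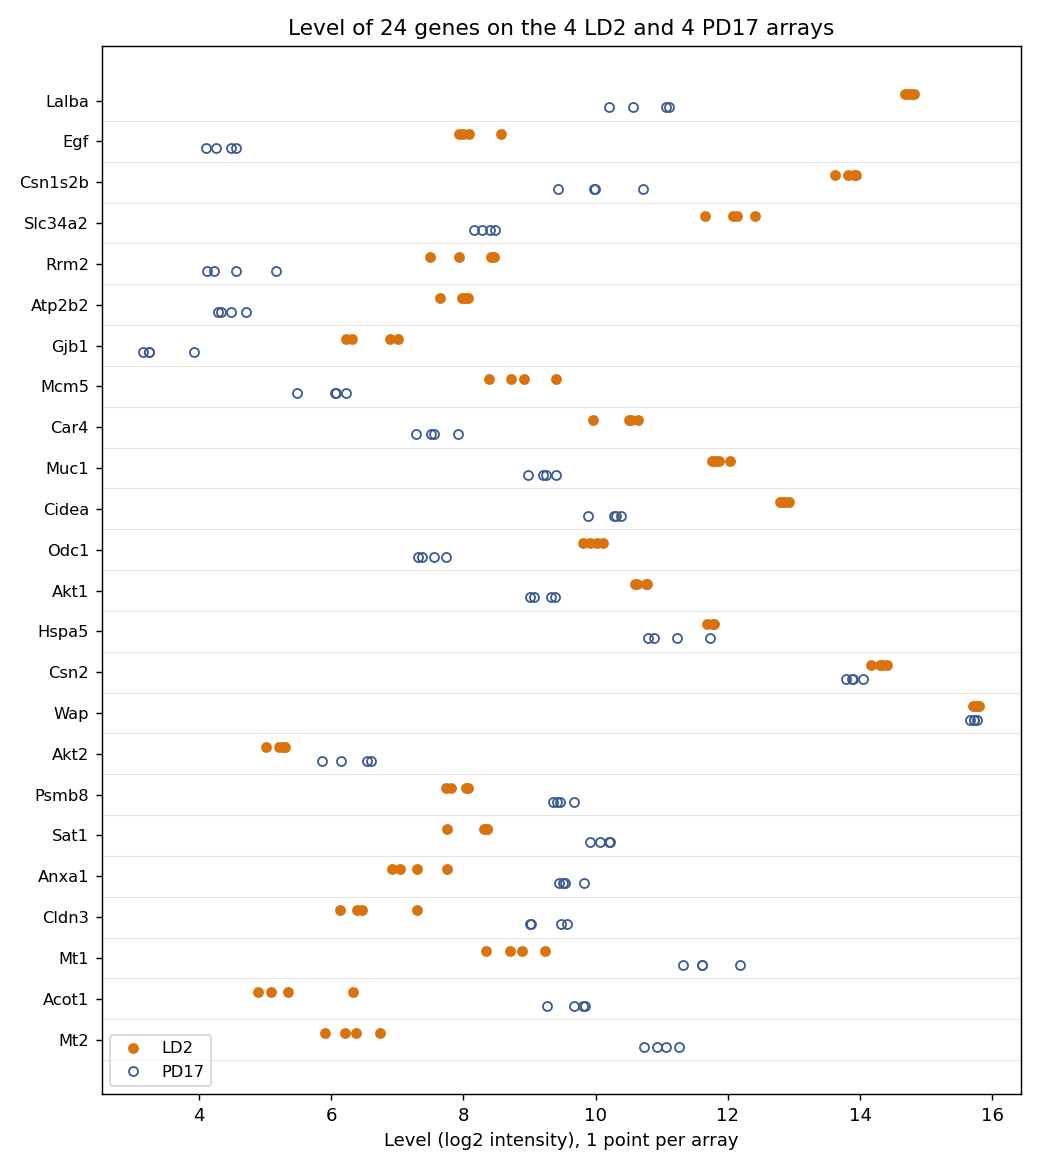
Log2 level of 24 genes on each array, with LD2 as filled points above and PD17 as open points below in each row. Rows run from the largest rise to the largest fall, and in 22 of the 24 rows the 4 filled and the 4 open points do not overlap; the exceptions are Wap and Hspa5.

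Milk proteins did not move as 1 block. Of 23 tested genes in a list of caseins, whey proteins and proteins of the milk fat globule, 14 rose, 2 fell and 7 did not pass. The median change was 0.59 against 0.02 over all tested genes. The vessel growth factor Vegfa was also in this list, and is counted among the rises. Lalba, the regulatory subunit that turns galactosyltransferase into lactose synthase, had log2 levels of 14.71, 14.77, 14.68 and 14.82 at LD2, against 11.07, 10.20, 10.56 and 11.11 at PD17. It rose by 4.01 ± 0.47 on the log2 scale, or 16.1-fold (adjusted p = 1.79e-06). Csn1s2b, a calcium-sensitive casein, had log2 levels of 13.62, 13.90, 13.82 and 13.94 at LD2, against 10.72, 10.00, 9.44 and 9.98 at PD17. It also rose on every array, by 3.79 ± 0.31 (13.8-fold, adjusted p = 3.05e-08). The other caseins had PD17 signals near their LD2 signals, but at both stages these lay near the top of the scale. The highest log2 level on any array was 15.84. Whether signal at that height still follows the amount of RNA was not tested. Csn2, the gene of beta-casein, had log2 levels of 14.30, 14.34, 14.16 and 14.40 at LD2, against 14.04, 13.89, 13.79 and 13.87 at PD17, a log2 change of 0.40 ± 0.10 (adjusted p = 0.00262). Csn3, the micelle-stabilising kappa-casein, changed by 0.41 (adjusted p = 0.00416) and Csn1s2a by 0.35 (adjusted p = 0.00396). With array medians set equal these 3 small rises lost their calls (adjusted p = 0.0685 for Csn2, 0.0879 for Csn3 and 0.139 for Csn1s2a). Csn1s1, the alpha-s1 casein, changed by 0.04 ± 0.08 (adjusted p = 0.664), with a 95% interval from -0.12 to 0.21.

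Wap, the whey acidic protein, had log2 levels of 15.80, 15.74, 15.71 and 15.76 at LD2, against 15.77, 15.72, 15.66 and 15.72 at PD17. The stages overlapped, and the log2 change was 0.03 ± 0.18 (adjusted p = 0.891). The highest log2 level of any probe set on any array was 15.84, so Wap, Glycam1 and Csn1s1 lay close to the top of the scale. Glycam1, a mucin-like milk protein, changed by 0.18 (adjusted p = 0.10), Fabp3, a fatty acid binding protein, by -0.01 (adjusted p = 0.955) and Wfdc18, a whey-type protease inhibitor domain protein, by -0.18 (adjusted p = 0.183). In RefSeq GRCm38.p6 the caseins sit together on chromosome 5 in the order Csn1s1, Csn2, Csn1s2a, Csn1s2b and Csn3, with Prr27, Odam and BC037156 between the last pair. Their log2 changes in that order were 0.04, 0.40, 0.35, 3.79 and 0.41, so the member with the large rise lies among neighbours with small ones.

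The RefSeq promoter of Csn2 is shown because this gene is the textbook target of prolactin through STAT5. It covers 250 bases before to 50 bases after the transcription start (GRCm38.p6, chr5:87699376-87699675, minus strand), and the capitals mark the match to the STAT-type motif TTCNNNGAA, which begins at position -93 relative to the start.
Csn2: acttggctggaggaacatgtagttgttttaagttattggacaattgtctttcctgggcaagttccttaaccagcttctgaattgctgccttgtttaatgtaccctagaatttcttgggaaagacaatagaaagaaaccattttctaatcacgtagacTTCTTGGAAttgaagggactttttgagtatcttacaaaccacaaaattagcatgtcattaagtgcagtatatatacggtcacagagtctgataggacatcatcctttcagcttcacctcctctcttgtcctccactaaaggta
This motif, a palindrome that reads the same on both strands, was found in the promoters of 9.55% of 27025 mouse genes. It was found in 4 of the 19 genes of the milk protein list that have a promoter in the table. These were Csn1s1, Csn1s2a, Csn2 and Glycam1, with log2 changes of 0.04, 0.35, 0.40 and 0.18, and no promoter of Csn1s2b or Csn3 was read. A match is a description of the letters and not a binding site.

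Several proteins of the milk fat globule rose. Muc1, an apical mucin of the globule membrane, had log2 levels of 11.76, 11.82, 11.87 and 12.03 at LD2, against 9.25, 9.21, 8.97 and 9.40 at PD17 (log2 change 2.66 ± 0.19, adjusted p = 3.92e-09). Cidea, a lipid droplet protein, had log2 levels of 12.81, 12.86, 12.78 and 12.92 at LD2, against 10.28, 10.38, 9.88 and 10.30 at PD17 (log2 change 2.63 ± 0.20, adjusted p = 9.77e-09). The LD2 arrays of both genes were tightly grouped and clear of all PD17 arrays. Xdh, xanthine oxidoreductase, rose by 1.69 ± 0.26 (adjusted p = 4.05e-05) and its partner butyrophilin, Btn1a1, by 1.12 ± 0.18 (adjusted p = 7.1e-05). Mfge8, lactadherin, rose by 0.65 and Folr1, a folate receptor found in milk, by 0.86 (adjusted p = 0.0049 and 0.00038). The falls were those of Plin2, the coat protein of cytoplasmic lipid droplets, by -0.39, and Nucb1, a Golgi calcium-binding protein, by -1.10 (adjusted p = 0.0105 and 9.76e-07). The call of Plin2 was lost with quantile normalization and with ribosomal probe sets set equal (adjusted p = 0.0852 and 0.638).

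Calcium, phosphate and zinc carriers showed some of the widest gaps. Of 29 tested genes of mineral and ion transport 10 rose, 6 fell and 13 did not pass; the median change was -0.05, and it was 0.05 with quantile normalization and 0.30 with ribosomal probe sets set equal. Slc34a2, a sodium-phosphate cotransporter of the apical membrane, had log2 levels of 11.66, 12.14, 12.08 and 12.41 at LD2, against 8.48, 8.40, 8.16 and 8.27 at PD17. This was a 13.4-fold rise (log2 change 3.74 ± 0.26, adjusted p = 4e-09). Atp2b2, the plasma membrane calcium pump that exports calcium into milk, had log2 levels of 8.03, 7.98, 7.64 and 8.07 at LD2, against 4.71, 4.49, 4.28 and 4.33 at PD17. Its rise was 11.1-fold (log2 change 3.47 ± 0.18, adjusted p = 8.6e-11). Slc20a1, a phosphate carrier of another family, rose by 1.30 and Kcnk1, a potassium leak channel, by 1.09 (adjusted p = 0.00019 and 1.89e-06). Car4, a membrane-anchored carbonic anhydrase and no member of that list, had log2 levels of 10.64, 9.96, 10.50 and 10.54 at LD2, against 7.56, 7.93, 7.28 and 7.51 at PD17 (log2 change 2.84 ± 0.29, adjusted p = 4.65e-07). A dim second probe set of Car4 changed by -0.17 (adjusted p = 0.715). The cytosolic isoform Car2 changed by -0.01 ± 0.20 (adjusted p = 0.983). Slc12a2, a basolateral sodium-potassium-chloride cotransporter, fell by 1.15 on the log2 scale (adjusted p = 0.000187), with all LD2 arrays between 8.32 and 8.95 and all PD17 arrays between 9.61 and 9.81. Kcnj15, an inward-rectifier potassium channel, changed by -1.40 (adjusted p = 5.58e-05), and a dim second probe set of it by -0.38 (adjusted p = 0.0894).

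The only fall called among the tested zinc importers ended at the bottom of the scale, while the others rose or did not pass. Slc39a8, an importer of zinc and manganese, had log2 levels of 9.43, 9.79, 9.50 and 9.92 at LD2, against 7.71, 8.00, 7.23 and 7.79 at PD17, a rise of 1.98 ± 0.19 (adjusted p = 2.48e-07). Slc39a4, the zinc importer known from the intestine, had log2 levels of 1.56, 1.51, 1.56 and 1.53 at LD2, against 5.53, 4.16, 4.12 and 4.32 at PD17. The LD2 values sat at the bottom of the scale, and of the log2 change of -2.99 (adjusted p = 4.71e-08) a change of -0.53 remained when every value below an intensity of 16 was set to 16 (adjusted p = 0.0952). Slc30a4, which moves zinc into secretory vesicles, changed by 0.46 (adjusted p = 0.00514), with overlapping arrays and no call once array medians were set equal (adjusted p = 0.0735).

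The metallothioneins, small cysteine-rich proteins that bind zinc and copper, gave the largest fall of all. Mt2 had log2 levels of 5.91, 6.73, 6.37 and 6.21 at LD2, against 10.73, 11.26, 10.92 and 11.06 at PD17. It fell 25.7-fold (log2 change -4.69 ± 0.31, adjusted p = 2.14e-09). Mt1 had log2 levels of 8.70, 9.24, 8.34 and 8.89 at LD2, against 11.61, 12.19, 11.60 and 11.33 at PD17, a 7.41-fold fall (log2 change -2.89 ± 0.31, adjusted p = 6.4e-07). In RefSeq GRCm38.p6 they are neighbours on chromosome 8 in the order Mt4, Mt3, Mt2 and Mt1. Mt3, known mainly from brain, changed by 0.13 ± 0.18 (adjusted p = 0.544), and Mt4 was too dim to be tested.

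The promoters of Mt2 and Mt1 are printed because metallothionein genes are induced through metal response elements bound by the zinc-sensing factor MTF-1. Both are on the plus strand of GRCm38.p6, Mt2 at chr8:94172368-94172667 and Mt1 at chr8:94178839-94179138, with the start site after the first 250 bases. Capitals mark matches, on either strand, to the core TGCNCNC.
Mt2: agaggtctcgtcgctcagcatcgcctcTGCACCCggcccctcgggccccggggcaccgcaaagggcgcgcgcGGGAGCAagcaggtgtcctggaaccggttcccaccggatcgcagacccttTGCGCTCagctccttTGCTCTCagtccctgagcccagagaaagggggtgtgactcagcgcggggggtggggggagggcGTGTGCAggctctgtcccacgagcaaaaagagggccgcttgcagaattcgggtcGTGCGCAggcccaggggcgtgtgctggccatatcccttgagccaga
Mt1: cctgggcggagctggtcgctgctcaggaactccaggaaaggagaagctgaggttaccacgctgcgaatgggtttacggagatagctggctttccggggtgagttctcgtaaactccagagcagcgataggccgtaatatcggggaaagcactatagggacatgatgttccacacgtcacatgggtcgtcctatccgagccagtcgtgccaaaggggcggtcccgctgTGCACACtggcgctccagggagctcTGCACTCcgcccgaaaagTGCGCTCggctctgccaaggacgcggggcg
The Mt2 window held 6 matches, beginning at positions -223, -178, -128, -113, -50 and 5 relative to the start. The Mt1 window held 3, beginning at positions -23, 3 and 21. The core is short and common: 53.6% of all genes had at least 1 match in this window, 8.04% had at least 3 and 0.263% at least 6.

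Of the 14 tested genes for metal binding and iron, 4 rose and 5 fell, with a median change of 0.01 that was -0.16 with array medians set equal. Tfrc, the transferrin receptor that takes up iron, rose by 1.01 ± 0.18 (adjusted p = 0.000158) and Lcn2, a siderophore-binding milk protein, by 0.73 ± 0.21 (adjusted p = 0.00889). Hp, haptoglobin, fell to a mean log2 level of 6.49 ± 0.38 at LD2, against 8.19 ± 0.60 at PD17 (SD, n = 4 each; adjusted p = 0.000228). Cp, the copper-carrying ferroxidase ceruloplasmin, changed by -0.83 (adjusted p = 0.00287). Fth1, the ferritin heavy chain, changed by -0.44 (adjusted p = 0.0049), and this call was lost with ribosomal probe sets set equal (-0.11, adjusted p = 0.481). A second probe set of Fth1 changed by -0.01 (adjusted p = 0.94).

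Carriers of organic molecules rose more often than they fell. Of 32 tested, 13 rose, 7 fell and 12 did not pass (median change 0.27, and 0.09 with array medians set equal). Slc25a1, the mitochondrial citrate carrier that feeds fatty acid synthesis, had log2 levels of 12.68, 12.20, 12.55 and 12.53 at LD2, against 9.95, 9.65, 9.86 and 9.90 at PD17. Its rise was 6.29-fold (log2 change 2.65 ± 0.26, adjusted p = 2.57e-07). Slc2a1, the glucose transporter GLUT1, had log2 levels of 7.50, 7.94, 7.62 and 8.05 at LD2, against 6.20, 6.01, 6.49 and 6.09 at PD17 (log2 change 1.58 ± 0.21, adjusted p = 8.91e-06). Both carriers were higher on all 4 LD2 arrays. Slc38a2, a neutral amino acid carrier, rose by 1.60, Slc29a1, a nucleoside carrier, by 1.33 and Slc7a7, a subunit of a cationic amino acid exchanger, by 1.17 (adjusted p = 0.000317, 3.81e-07 and 9.46e-05). The 4 largest of the falls were those of Abca1, the cholesterol exporter, by -2.04, Slc25a4, the mitochondrial adenine nucleotide carrier, by -1.35, Slc1a5, a glutamine carrier, by -1.27, and Slc15a2, a peptide carrier, by -1.05, all with separate arrays (adjusted p from 7.66e-06 to 0.000634). A dim second probe set of Abca1 changed by 0.00 (adjusted p = 0.987). Abcg2, the riboflavin and drug exporter into milk, changed by 0.42 ± 0.19 and did not pass (adjusted p = 0.0707), and it passed without PD17 replicate 3 (0.53, adjusted p = 0.0317).

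Among genes of glycosylation in the Golgi, of 21 tested 7 rose, 2 fell and 12 did not pass (median change 0.20, and 0.03 with array medians set equal); 1 fell without LD2 replicate 3 or 4 or without PD17 replicate 1, 2 or 4. The 4 largest rises, of genes that handle sialic acid, are given here. St6gal1, which adds sialic acid to galactose, had log2 levels of 10.54, 10.69, 10.96 and 11.01 at LD2, against 8.84, 8.85, 9.21 and 9.31 at PD17 (log2 change 1.75 ± 0.23, adjusted p = 8.03e-06). St3gal1, a sialyltransferase acting on O-linked chains, rose by 1.64 ± 0.14 (adjusted p = 4.09e-08) and St6galnac2, of the same enzyme class, by 1.06 ± 0.13 (adjusted p = 3.08e-06). Gne, the entry enzyme of sialic acid synthesis, rose by 1.12 ± 0.17 (adjusted p = 3.94e-05). These 4 genes had no overlap between stages. Galnt2, which starts O-linked chains, changed by -0.94 (adjusted p = 0.0059) at dim levels, and lost its call with ribosomal probe sets set equal (adjusted p = 0.0689). B4galt1, the galactosyltransferase that pairs with alpha-lactalbumin to make lactose, had log2 levels of 9.32, 9.09, 9.14 and 8.88 at LD2, against 9.48, 9.03, 8.86 and 9.45 at PD17. The log2 change of B4galt1 was -0.10 (95% interval -0.55 to 0.36, adjusted p = 0.727), beside the change of 4.01 in Lalba.

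Junction genes fell more often than they rose: of 23 tested, 12 fell, 5 rose and 6 did not pass (median change -0.46, and -0.08 with ribosomal probe sets set equal). The count of rises was 3 without LD2 replicate 1. Within this list the connexins, which form gap junctions, differed in direction. Gjb1, connexin 32, had log2 levels of 6.23, 7.01, 6.32 and 6.89 at LD2, against 3.25, 3.16, 3.92 and 3.24 at PD17, a rise of 3.22 ± 0.21 (adjusted p = 2.03e-09). Its PD17 values were all below the test line. Gjb6, connexin 30, had log2 levels of 6.19, 5.30, 5.89 and 5.47 at LD2, against 7.51, 7.29, 8.11 and 7.95 at PD17, a change of -2.0 ± 0.37 (adjusted p = 0.000244). Gja1, connexin 43 of myoepithelial and stromal cells, changed by -1.78 ± 0.22 (adjusted p = 2.85e-06), and a dimmer probe set of it changed by 0.08 (adjusted p = 0.753). Gjb2, connexin 26 of the secretory epithelium, changed by -0.70 ± 0.21 (adjusted p = 0.0114), a call lost with ribosomal probe sets set equal (-0.37, adjusted p = 0.177).

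Claudins, the strands that seal tight junctions, also differed in direction. Cldn3 had log2 levels of 6.38, 7.29, 6.14 and 6.46 at LD2, against 9.47, 9.02, 9.01 and 9.56 at PD17, a 6.48-fold fall (log2 change -2.70 ± 0.24, adjusted p = 7.86e-08). Cldn4 had log2 levels of 2.69, 2.64, 2.67 and 2.66 at LD2, against 5.35, 5.32, 4.50 and 5.45 at PD17 (log2 change -2.49 ± 0.23, adjusted p = 1.07e-07), so its LD2 values were below the test line. Cldn5, best known from endothelium, changed by -2.20 ± 0.23 (adjusted p = 4.88e-07) with LD2 arrays from 3.69 to 4.50. Other endothelial markers did not fall as a group: of 10 tested, 1 fell and 2 rose (1 rose when any array but PD17 replicate 2 was left out, 2 fell without LD2 replicate 1 or PD17 replicate 1, and 0 fell without PD17 replicate 2), and the log2 of their summed intensity was 9.38 to 9.70 at LD2 and 9.33 to 9.70 at PD17. Cldn8 had log2 levels of 8.04, 8.22, 8.35 and 8.37 at LD2, against 7.0, 6.78, 7.22 and 7.15 at PD17, a rise of 1.21 ± 0.13 (adjusted p = 8.55e-07). Cldn1 changed by 0.02 (adjusted p = 0.916). Jup, plakoglobin of desmosomes and adherens junctions, rose by 1.25 ± 0.18 (adjusted p = 2.74e-05), while the adhesion molecule Epcam fell by 1.30 on the log2 scale (adjusted p = 5.06e-05).

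Of 35 genes of progesterone and lactogenic hormone signalling, 20 were tested. Of these, 3 rose (15%, against 24.1% of all tested genes), 5 fell (25%, against 25.3%) and 12 did not pass. The median change was -0.20, and 0.13 with ribosomal probe sets set equal. Elf5, the transcription factor of alveolar fate, had log2 levels of 11.11, 11.25, 11.07 and 11.31 at LD2, against 11.08, 10.90, 11.46 and 11.26 at PD17. The arrays overlapped (log2 change 0.01 ± 0.14, adjusted p = 0.952). Stat5a, which carries the prolactin signal to the nucleus, changed by -0.37 ± 0.22 (adjusted p = 0.161) on a probe set that can also detect related transcripts, and passed with array medians set equal (-0.55, adjusted p = 0.0487). Pgr, the progesterone receptor, was below the test line at every stage, with mean log2 levels of 4.04 ± 0.08 at LD2 and 3.70 ± 0.08 at PD17 (SD, n = 4 each). Prlr, the prolactin receptor, had no probe set of its own and is not reported. Nr3c1, the glucocorticoid receptor, changed by 0.52 ± 0.14 (adjusted p = 0.00431), not called with array medians set equal (adjusted p = 0.0554). Socs2, a feedback inhibitor of growth hormone and prolactin signals, fell by 0.76, Nfib, a partner factor on milk gene promoters, by 0.62 and Cebpb by 0.40 on the log2 scale (adjusted p = 0.00457, 0.00386 and 0.0111), and all 3 calls were lost with ribosomal probe sets set equal. Cav1, the caveolar protein that restrains prolactin signalling, fell by 1.00 on the log2 scale (adjusted p = 0.00083).

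A growth factor list named for the EGF and IGF families was about evenly split. Of 25 tested, 8 were higher (32%, against 24.1% of all tested genes), 9 lower (36%, against 25.3%) and 8 did not pass. The median change was 0.07, and -0.11 with array medians set equal. The list also holds growth factors and receptors of other families, such as Vegfa and Kit. Egf, a growth factor secreted into milk, had log2 levels of 8.00, 8.09, 7.93 and 8.57 at LD2, against 4.56, 4.26, 4.10 and 4.49 at PD17. It rose 13.9-fold (log2 change 3.79 ± 0.18, adjusted p = 3.12e-11). Vegfa, the vessel growth factor, rose by 1.19 ± 0.20 (adjusted p = 8.55e-05) and Igfbp6, an IGF-II binding protein, changed by -1.30 ± 0.24 (adjusted p = 0.000308). Erbb3, a receptor of neuregulins, had log2 levels of 4.71, 6.96, 5.78 and 5.84 at LD2, against 7.40, 7.81, 7.16 and 7.37 at PD17 (log2 change -1.61 ± 0.40, adjusted p = 0.00323). LD2 replicate 2 was the highest of its group there and also for Errfi1, an inhibitor of EGF receptors (log2 change -1.58, adjusted p = 0.00202). The mean of both Errfi1 probe sets did not pass (-0.74, adjusted p = 0.0626).

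Kinases that relay insulin and growth factor signals included a pair of paralogs with opposite changes. Akt1 had log2 levels of 10.62, 10.60, 10.78 and 10.76 at LD2, against 9.06, 9.01, 9.33 and 9.39 at PD17, a rise of 1.5 ± 0.11 (adjusted p = 4.77e-09). Akt2 had log2 levels of 5.30, 5.27, 5.01 and 5.21 at LD2, against 6.54, 6.61, 5.86 and 6.15 at PD17, a change of -1.09 ± 0.17 (adjusted p = 5.17e-05). Neither gene had overlapping arrays. Upstream of both, Pik3r1, a regulatory subunit of phosphoinositide 3-kinase, fell by 1.13 and Pdpk1, which phosphorylates Akt, by 1.07 on the log2 scale (adjusted p = 0.000597 and 2.77e-05). A dimmer probe set of Pdpk1 changed by -0.02 (adjusted p = 0.923). Nras, a small GTPase, fell by 1.77, Prkacb, a catalytic subunit of protein kinase A, by 1.5 and Map3k1, a stress-pathway kinase, by 1.35 on the log2 scale (adjusted p = 1.08e-08, 1.1e-06 and 0.000311). For Map3k1 a dim second probe set changed by 0.09 (adjusted p = 0.505). In the whole list of 34 tested, 9 rose and 9 fell (26.5% each, against 24.1% and 25.3% of all tested genes) and 16 did not pass. The median change was 0.09, and -0.10 with array medians set equal. The 9 rises were 5 without LD2 replicate 3, and of the rises only that of Akt1 reached 2-fold while 6 falls did.

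A list of 30 tested genes covered the unfolded protein response, protein folding, protein entry and glycan transfer in the endoplasmic reticulum. Of these, 11 rose, 0 fell by limma's adjusted p and 19 did not pass (median change 0.26, and 0.08 with array medians set equal). At an unadjusted p under 0.05, 1 was lower, and 1 fell by adjusted p without LD2 replicate 1, LD2 replicate 2 or PD17 replicate 3. Ssr1, a subunit of the translocon-associated complex, had log2 levels of 10.05, 9.84, 9.83 and 9.89 at LD2, against 8.63, 8.68, 9.08 and 8.86 at PD17 (log2 change 1.09 ± 0.23, adjusted p = 0.000874). Ddost, of the oligosaccharyltransferase, rose by 1.02 and Srpr, the receptor of the signal recognition particle, by 0.85 (adjusted p = 0.00315 and 4.31e-06). All 3 were higher on every LD2 array, but a dimmer probe set of Ssr1 changed by 0.13 (adjusted p = 0.67). Qsox1, a secreted sulfhydryl oxidase that forms disulfide bonds and no member of the list, had log2 levels of 10.49, 10.56, 10.46 and 10.56 at LD2, against 8.76, 7.96, 8.25 and 8.14 at PD17 (log2 change 2.24 ± 0.15, adjusted p = 2.03e-09). Prdx4, the peroxiredoxin of the endoplasmic reticulum, rose by 1.35 ± 0.12 (adjusted p = 5.63e-08). Dnajb9, a co-chaperone, rose by 1.41 ± 0.36 (adjusted p = 0.00389), but the mean of its 2 probe sets did not pass (0.54, adjusted p = 0.179). Pdia6, a disulfide isomerase, rose by 0.69 (adjusted p = 0.0194), and without PD17 replicate 4 its adjusted p was 0.0614.

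The best known stress-response genes of this compartment did not pass. Hspa5, the chaperone BiP, had log2 levels of 11.79, 11.69, 11.78 and 11.77 at LD2, against 10.88, 10.80, 11.74 and 11.24 at PD17 (log2 change 0.59 ± 0.26, adjusted p = 0.0611). Xbp1, a transcription factor of the unfolded protein response, had log2 levels of 11.77, 12.01, 11.95 and 12.13 at LD2, against 11.27, 11.62, 11.92 and 11.53 at PD17 (log2 change 0.38 ± 0.17, adjusted p = 0.0674). In both, PD17 replicate 3 stood at the level of the LD2 arrays, and without it Hspa5 changed by 0.79 (adjusted p = 0.0185) and Xbp1 by 0.49 (adjusted p = 0.0267). Both also passed in a fit of the 8 compared arrays alone (adjusted p = 0.0236 and 0.0471) and with quantile normalization (adjusted p = 0.0426 and 0.0203). Pdia3, another disulfide isomerase, was also highest on that array (log2 level 10.47) and changed by -0.51 (adjusted p = 0.199).

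Vesicle traffic genes rose and fell about as often as tested genes at large. Of 50 tested, 12 rose (24%, against 24.1% of all tested genes), 11 fell (22%, against 25.3%) and 27 did not pass. The median change was -0.11, and 0.22 with ribosomal probe sets set equal. Rises included the following. Rab1a, the GTPase of that path, had log2 levels of 9.93, 10.03, 10.11 and 10.22 at LD2, against 9.15, 8.76, 9.18 and 8.81 at PD17 (log2 change 1.10 ± 0.16, adjusted p = 2.01e-05). Lman1, a cargo receptor, rose by 1.07, Arf3, a coat-recruiting GTPase of the Golgi, by 0.95, Rab18, found on lipid droplets, by 0.71 and Sec13, a coat subunit, by 0.65 (adjusted p from 6.22e-07 to 0.00667). The largest falls were those of 3 fusion proteins. Stx3, an apical syntaxin, had log2 levels of 6.95, 7.34, 7.30 and 7.28 at LD2, against 8.65, 8.70, 8.94 and 9.11 at PD17 (log2 change -1.63 ± 0.17, adjusted p = 6.22e-07). Dimmer probe sets of Stx3 changed by -0.40 and 0.19 (adjusted p = 0.0432 and 0.0706). Vamp8, an endosomal and secretory vesicle fusion protein, had log2 levels of 8.50, 8.79, 8.48 and 8.46 at LD2, against 10.24, 10.27, 10.03 and 10.16 at PD17 (log2 change -1.62 ± 0.15, adjusted p = 1.06e-07). The probe set of Vamp8 can detect related transcripts. Stx4a, the basolateral syntaxin, fell by 1.55 on the log2 scale (adjusted p = 1.82e-07). Sec23a, a coat subunit of the early path, fell by 1.10 and Rab6a, a Golgi GTPase, by 0.78 (adjusted p = 5.47e-06 and 6.59e-05).

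Ribosomal protein genes fell. Of 20 tested, 18 fell, 1 rose and 1 did not pass, with a median change of -0.48; the 1 rise was lost when any of the 8 arrays but PD17 replicate 3 was left out, and without LD9 replicate 1 there were 2. That median was -0.15 when the ribosomal probe sets of all arrays were set equal, a scaling that uses these genes themselves. Rpsa, a protein of the small subunit, had log2 levels of 10.87, 10.70, 10.65 and 10.66 at LD2, against 11.74, 11.78, 11.55 and 11.55 at PD17 (log2 change -0.93 ± 0.12, adjusted p = 6.83e-06). Rpl13a, of the large subunit, changed by -1.28 ± 0.15 (adjusted p = 2.71e-06). Smaller changes were those of Rps24, Rpl41 and Rps4x, the first 2 with LD2 levels of 13.88 and 14.57 near the top of the scale: Rps24 changed by -0.37, Rpl41 by -0.38 and Rps4x by -0.16 (adjusted p = 0.00517, 0.00199 and 0.219). With ribosomal probe sets set equal the adjusted p was 0.784 for Rps24 and 0.685 for Rpl41, and the mean of the Rps24 probe sets changed by -0.11 (adjusted p = 0.206). Translation factors were mixed, with 6 of 28 higher, 11 lower and 11 not passing (median change -0.13, and 0.20 with ribosomal probe sets set equal). Pabpc1, the cytoplasmic poly(A)-binding protein, had log2 levels of 11.69, 11.60, 11.39 and 11.37 at LD2, against 12.60, 12.77, 12.18 and 12.47 at PD17 (log2 change -0.99 ± 0.14, adjusted p = 1.16e-05). Eif6, which keeps ribosomal subunits apart, fell by 1.03 and Eif3e by 0.93 on the log2 scale (adjusted p = 3.59e-05 and 7.73e-05). Gspt1, the termination factor eRF3a, rose by 1.13, and Eef2k, the kinase that slows elongation, by 1.04 (adjusted p = 1.03e-05 and 0.000216).

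Respiratory chain and ATP synthase genes mostly did not pass: of 45 tested, 15 fell, 2 rose and 28 did neither (median change -0.16, and 0.19 with ribosomal probe sets set equal). Atp5g2, a membrane subunit of ATP synthase, changed by -1.88 ± 0.32 and Cox4i1, of cytochrome oxidase, by -0.90 ± 0.11 (adjusted p = 0.00012 and 1.97e-06), both on probe sets that can detect related transcripts. Ndufa7, of complex I, changed by -0.82 ± 0.10 (adjusted p = 2.8e-06). Atp5o, the stalk subunit of ATP synthase, rose by 0.41 (adjusted p = 0.0119), a call lost with array medians set equal (adjusted p = 0.16). Of 19 genes of aminoacyl-tRNA synthetases 1 rose, 2 fell and 16 did not pass (median change -0.10, and 0.22 with ribosomal probe sets set equal). With 1 of the 8 arrays left out, 0 to 2 rose and 1 or 2 fell, and without LD9 replicate 1, 3 rose. Vars rose by 0.56 (adjusted p = 0.0188), and its call was lost without LD2 replicate 1 or 4 (adjusted p = 0.0512 and 0.064). Aimp1, a scaffold of the synthetase complex, fell by 0.70 on the log2 scale (adjusted p = 0.000791, and 0.0689 with ribosomal probe sets set equal), and Gars changed by -0.35 (adjusted p = 0.0351), a call that 6 of the 8 single-array omissions ended (adjusted p from 0.0511 to 0.0774).

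**Figure D3:**
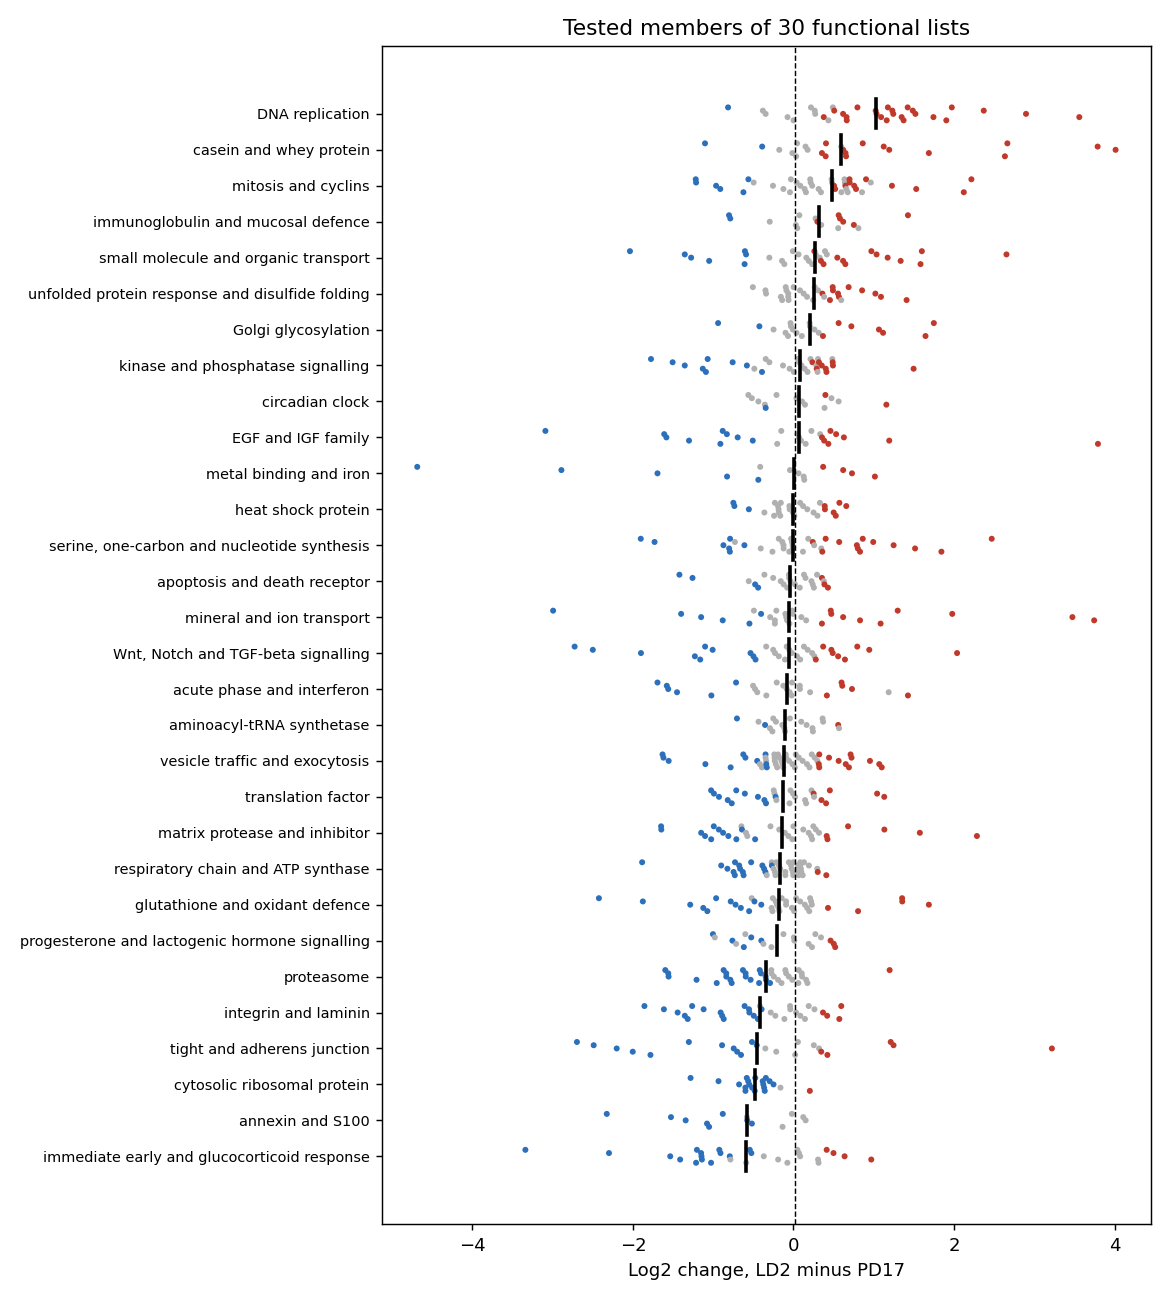
Log2 change, LD2 minus PD17, of each tested member of 30 functional lists, 1 grey, red or blue point a gene (blue lower, red higher, grey not passing), with the list median as a black bar and the median of all tested genes as a dashed line. DNA replication has the highest median at 1.03 and immediate early genes the lowest at -0.59.

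The proteasome degrades ubiquitin-tagged proteins. Of its 36 tested genes 20 fell, 1 rose and 15 did not pass (median change -0.34, and -0.02 with ribosomal probe sets set equal). The 3 catalytic subunits of the immunoproteasome, the interferon-inducible form that produces peptides for antigen presentation, lay apart from the rest. Psmb8 had log2 levels of 8.05, 8.06, 7.82 and 7.74 at LD2, against 9.35, 9.46, 9.67 and 9.42 at PD17 (log2 change -1.56 ± 0.17, adjusted p = 1.09e-06). Psmb9 had log2 levels of 5.94, 5.69, 5.85 and 5.82 at LD2, against 7.32, 7.19, 7.70 and 7.31 at PD17 (log2 change -1.56 ± 0.18, adjusted p = 1.31e-06). Psmb10 changed by -1.60 ± 0.17 (adjusted p = 7.14e-07). The 14 tested subunits of the constitutive core ranged from -0.96 to 0.10 with a median of -0.41, and 10 of them fell. Psmb5, the constitutive counterpart of Psmb8, changed by 0.10 ± 0.18 (adjusted p = 0.663). The 17 subunits of the regulatory cap had a median of -0.24, and 6 fell. The activators differed in direction: Psme1, of the interferon-inducible activator, changed by -1.21 ± 0.13 (adjusted p = 9.76e-07), and Psme3, of the nuclear activator, rose by 1.20 ± 0.21 (adjusted p = 0.00015).

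**Figure D4:**
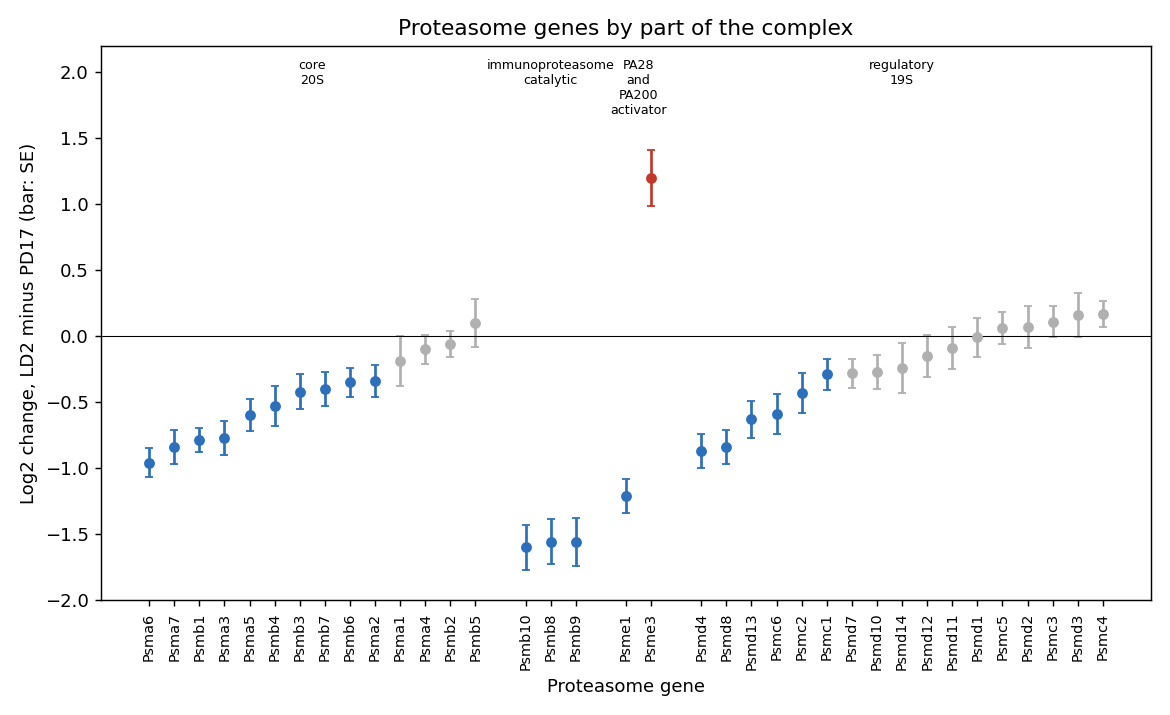
Log2 change, LD2 minus PD17, with its standard error for the 36 tested proteasome genes, grouped by part of the complex. The 3 immunoproteasome subunits and Psme1 lie below -1.2, the core subunits between -0.96 and 0.10, and Psme3 above 1.

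Genes of antigen presentation next to these subunits also fell. In RefSeq GRCm38.p6 the order on chromosome 17 is Psmb9, Tap1, Psmb8 and Tap2, and their log2 changes were -1.56, -1.45, -1.56 and -1.22. Tap1 and Tap2, which carry peptides into the endoplasmic reticulum, had adjusted p of 3.59e-05 and 0.000118. B2m, the light chain of class I molecules on chromosome 2, changed by -0.80 ± 0.18 (adjusted p = 0.0015) and Gbp2, an interferon-inducible GTPase, by -1.58 ± 0.23 (adjusted p = 2.01e-05). Interferon-response genes were not counted apart from acute phase genes. In the list of acute phase and interferon genes, which includes Psmb8, Tap1 and Gbp2, 5 of 25 rose, 6 fell and 14 did not pass (median change -0.08, and 0.22 with ribosomal probe sets set equal). Lbp, the lipopolysaccharide-binding protein, had log2 levels of 10.53, 10.73, 10.75 and 10.52 at LD2, against 9.21, 9.46, 9.03 and 9.12 at PD17 (log2 change 1.43 ± 0.22, adjusted p = 3.56e-05). Macrophage markers also fell, 7 of 10 tested with 0 higher by limma's test, adjusted or not, and the log2 of their summed intensity was 10.31 to 10.85 at LD2 and 11.05 to 11.54 at PD17. C1qa and C1qb, complement chains made by macrophages, changed by -1.14 and -1.27 (adjusted p = 0.00124 and 8.12e-05). The macrophages' part in the fall of the antigen presentation genes was not tested. In whole tissue, fewer cells of a type and less RNA in each cell cannot be told apart.

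DNA replication was the list with the largest shift upward. Of 34 tested genes 24 rose, 1 fell and 9 did not pass, with a median change of 1.03 that stayed above 0 under each scaling tried. The 1 fall was lost without LD2 replicate 1 or PD17 replicate 3, and 2 fell without LD2 replicate 4. Rrm2, the regulated subunit of ribonucleotide reductase, had log2 levels of 8.46, 7.50, 8.41 and 7.93 at LD2, against 4.12, 4.23, 4.56 and 5.16 at PD17 (log2 change 3.56 ± 0.50, adjusted p = 1.66e-05). Mcm5, of the replicative helicase, had log2 levels of 9.40, 8.38, 8.91 and 8.72 at LD2, against 5.49, 6.08, 6.05 and 6.22 at PD17 (log2 change 2.90 ± 0.38, adjusted p = 6.87e-06). For both genes the gap between the stages was wider than the spread of either. Fen1, the flap endonuclease of lagging-strand synthesis, rose by 2.37, and the helicase subunits Mcm4 and Mcm3 by 1.97 and 1.90 (adjusted p = 2.81e-05, 0.000165 and 3.03e-05), the last 2 from PD17 means below the test line. Tk1, thymidine kinase, rose by 1.74 and Pcna, the sliding clamp, by 1.49 (adjusted p = 1.92e-05 and 0.000185). The rise was not a trend across the time course: of the 24 genes called higher, the mean level at PD12 was nearer LD2 than PD17 for 20, that at LD1 for 18 and that at LD9 for 3. Rrm2, for example, had mean log2 levels of 6.92 at PD12, 4.52 at PD17, 6.88 at LD1, 8.08 at LD2 and 4.53 at LD9.

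The RefSeq promoters of Mcm5 and Mcm3 are printed because E2F factors drive replication genes at the start of DNA synthesis. Mcm5 lies on the plus strand (GRCm38.p6, chr8:75109259-75109558) and Mcm3 on the minus strand (chr1:20820263-20820562), and capitals mark the E2F-type motifs TTTCCCGC or TTTGGCGC on either strand.
Mcm5: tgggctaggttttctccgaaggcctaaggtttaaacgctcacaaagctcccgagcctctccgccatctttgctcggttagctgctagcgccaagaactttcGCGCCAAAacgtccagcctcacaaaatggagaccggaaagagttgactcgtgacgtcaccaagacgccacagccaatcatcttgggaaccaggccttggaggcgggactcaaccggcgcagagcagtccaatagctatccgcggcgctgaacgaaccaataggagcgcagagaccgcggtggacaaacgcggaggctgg
Mcm3: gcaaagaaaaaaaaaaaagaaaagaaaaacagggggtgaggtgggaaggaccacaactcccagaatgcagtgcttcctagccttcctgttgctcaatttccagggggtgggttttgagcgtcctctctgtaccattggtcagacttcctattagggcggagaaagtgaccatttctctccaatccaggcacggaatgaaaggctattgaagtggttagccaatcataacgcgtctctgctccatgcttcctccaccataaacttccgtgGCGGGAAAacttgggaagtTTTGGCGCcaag
The match in Mcm5 begins at position -149 relative to the start, and those in Mcm3 begin at positions 20 and 39. One of these motifs was present in 10 of the 40 list genes with a promoter in the table (25%), and in 1.80% of all genes. Among list genes called higher, 6 of 21 with a promoter had it.

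Of 41 tested genes of mitosis and cyclins, 12 rose (29.3%, against 24.1% of all tested genes), 6 fell and 23 did not pass (median change 0.47, 0.30 with array medians set equal and 0.80 with ribosomal probe sets set equal). Mki67, the proliferation marker Ki-67, had log2 levels of 9.38, 9.55, 9.43 and 10.13 at LD2, against 6.87, 7.10, 7.98 and 7.68 at PD17 (log2 change 2.22 ± 0.46, adjusted p = 0.000773). Ccnd1, cyclin D1 of the G1 phase, had log2 levels of 8.19, 7.72, 7.68 and 7.93 at LD2, against 5.09, 5.81, 6.28 and 5.86 at PD17 (log2 change 2.12 ± 0.35, adjusted p = 7.59e-05). Both were separate between the stages. Top2a, topoisomerase II, rose by 1.37 ± 0.39 (adjusted p = 0.00742), and Aurka, a spindle kinase, by 1.53 ± 0.45 (adjusted p = 0.00902) with 1 overlapping array. Ccnb2, a mitotic cyclin, had log2 levels of 6.98, 7.69, 6.75 and 6.60 at LD2, against 5.78, 6.75, 6.83 and 7.72 at PD17, and did not pass (log2 change 0.23 ± 0.54, adjusted p = 0.741). Cdk4, the partner kinase of cyclin D1, fell by 0.96, Myc by 1.21 and the cell cycle inhibitor Cdkn1c by 1.22 on the log2 scale (adjusted p = 0.000106, 0.00104 and 2.36e-05). A dimmer probe set of Cdk4 changed by 0.01 (adjusted p = 0.983).

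Polyamines, small cations needed for growth and translation, are made by Odc1 and Srm and cleared through Sat1. Odc1, ornithine decarboxylase, had log2 levels of 10.12, 9.81, 9.92 and 10.02 at LD2, against 7.38, 7.32, 7.56 and 7.74 at PD17 (log2 change 2.47 ± 0.17, adjusted p = 3.72e-09). Srm, spermidine synthase, rose by 1.25 ± 0.14, and Azin1, which protects Odc1 protein from breakdown, by 0.83 ± 0.11 (adjusted p = 9.76e-07 and 1.13e-05). The probe set of Srm can detect related transcripts. Sat1, spermidine acetyltransferase, had log2 levels of 7.75, 8.36, 8.36 and 8.31 at LD2, against 10.20, 10.22, 9.91 and 10.06 at PD17 (log2 change -1.90 ± 0.19, adjusted p = 4.18e-07). Odc1, Srm and Azin1 were thus higher, and Sat1 lower, on every LD2 array than on any PD17 array. Polyamine levels were not measured. These genes belong to a list of serine, one-carbon, polyamine and nucleotide synthesis, in which 13 of 36 rose, 7 fell and 16 did not pass (median change -0.01, and 0.32 with ribosomal probe sets set equal). Impdh1, of guanine nucleotide synthesis, rose by 1.84 and Aldh18a1, of proline and ornithine synthesis, by 1.51 (adjusted p = 2.62e-05 and 1.02e-06). Ctps, CTP synthase, fell by 1.73 on the log2 scale (adjusted p = 1.04e-05).

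**Figure D5:**
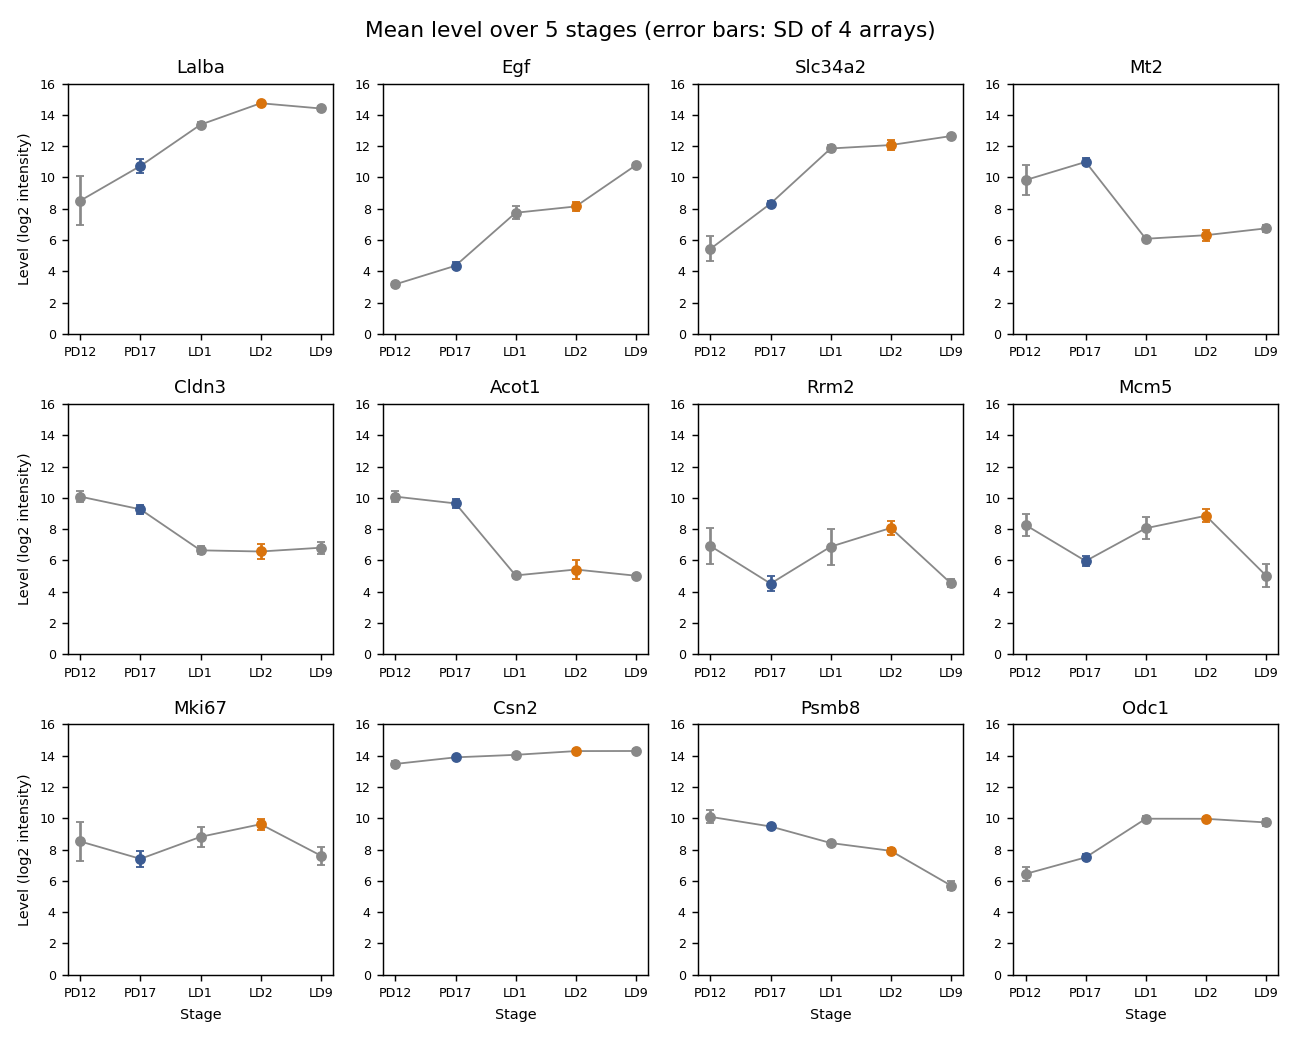
Mean log2 level of 12 genes, with the SD of 4 arrays as error bars, over PD12, PD17, LD1, LD2 and LD9, with LD2 in orange and PD17 in blue. Lalba, Egf and Slc34a2 are high at all 3 lactation stages, Mt2 and Cldn3 low at all 3, and Rrm2, Mcm5 and Mki67 are higher at LD2 than at PD17 and at LD9.

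Immediate early and glucocorticoid-responsive genes fell: of 29 tested, 15 fell, 4 rose and 10 did not pass (median change -0.59, and -0.26 with ribosomal probe sets set equal). Klf6, a zinc finger factor, had log2 levels of 4.91, 5.69, 5.05 and 5.24 at LD2, against 7.95, 8.04, 6.74 and 7.35 at PD17 (log2 change -2.30 ± 0.28, adjusted p = 3.59e-06). Ier2 changed by -1.53 and Zbtb16, a glucocorticoid-induced factor, by -1.41 (adjusted p = 4.27e-05 and 0.00391). Fos, the archetype of the class, had log2 levels of 4.26, 4.98, 4.72 and 4.51 at LD2, against 6.11, 6.68, 5.17 and 5.31 at PD17 (log2 change -1.20 ± 0.37, adjusted p = 0.011). The separation of Fos was narrow, with the closest LD2 and PD17 arrays at 4.98 and 5.17. Cited2, a transcriptional co-regulator, rose by 0.97 ± 0.26 (adjusted p = 0.00522). Jund did not pass (-0.19, adjusted p = 0.357), and it passed without PD17 replicate 3 (-0.38, adjusted p = 0.0388).

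LD2 replicate 2 stood above the other LD2 arrays for 3 further genes. Txnip, an arrestin-like inhibitor of glucose uptake from the oxidant defence list, had log2 levels of 7.25, 11.08, 8.46 and 7.67 at LD2, against 11.30, 11.51, 10.79 and 10.56 at PD17. The stages overlapped through that array, and the log2 change was -2.42 ± 0.67 (adjusted p = 0.00631). Sgk1, a glucocorticoid-induced kinase, had 8.40 on it against 6.56 to 7.11 on the other LD2 arrays, and Fkbp5, a glucocorticoid-induced chaperone, 7.50 against 6.50 to 6.62. Neither passed (log2 changes 0.31 and 0.31, adjusted p = 0.578 and 0.411). Over the 29 genes of the immediate early list, LD2 arrays 1 to 4 were the highest of their stage for 3, 10, 11 and 5 genes, so replicate 2 did not stand alone there.

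Signals of the Wnt, Notch and TGF-beta families were called at near the share of all tested genes. Of 33 tested, 9 rose (27.3%, against 24.1% of all tested genes), 10 fell (30.3%, against 25.3%) and 14 did not pass. The median change was -0.05, and 0.29 with ribosomal probe sets set equal. Among ligands, Tgfb2 had log2 levels of 5.20, 5.55, 4.78 and 4.43 at LD2, against 7.77, 7.61, 7.23 and 7.35 at PD17 (log2 change -2.50 ± 0.25, adjusted p = 3.6e-07). Tgfb3, which in mouse is known to rise when milk stasis starts involution, had log2 levels of 5.12, 6.59, 6.61 and 4.91 at LD2, against 8.08, 7.86, 6.92 and 7.98 at PD17 (log2 change -1.90 ± 0.41, adjusted p = 0.000961). Neither ligand had overlapping arrays, but a dim second probe set of Tgfb3 changed by -0.13 (adjusted p = 0.32). The Wnt receptor Fzd4 changed by -2.73 ± 0.23 (adjusted p = 3.55e-08), and the transducers Smad1 and Tcf4 by -1.16 and -1.23 (adjusted p = 4.48e-05 and 0.00061). Sfrp1, a secreted Wnt antagonist, had log2 levels of 7.56, 8.67, 8.31 and 8.67 at LD2, against 6.59, 6.11, 6.02 and 6.35 at PD17 (log2 change 2.04 ± 0.22, adjusted p = 7.92e-07). Notch4 changed by 0.56 (adjusted p = 0.000972) on a probe set that can detect related transcripts. Genes of apoptosis were mostly uncalled, 3 of 25 higher, 4 lower and 18 not passing (median change -0.04, and 0.38 with ribosomal probe sets set equal). The larger falls were of survival genes: Bcl2l1, Bcl-x, changed by -1.42 ± 0.16 and Birc2, an inhibitor of apoptosis, by -1.26 ± 0.14 (adjusted p = 8.83e-07 and 1.51e-06). Clu, clusterin, did not pass (-0.25, adjusted p = 0.161), but a second probe set fell (-0.62, adjusted p = 0.00374), and so did the mean of its probe sets (-0.44, adjusted p = 0.0147) and Clu with array medians set equal (-0.42, adjusted p = 0.0281).

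Integrins and laminins attach cells to the basement membrane. Of 31 tested genes of this list 16 fell, 4 rose and 11 did not pass, with a median change of -0.42 (-0.08 with ribosomal probe sets set equal); the rises were 2 without LD2 replicate 2. Itgb1, the common beta subunit of laminin and collagen receptors, had log2 levels of 8.54, 8.82, 8.99 and 8.70 at LD2, against 10.20, 10.06, 10.21 and 9.99 at PD17 (log2 change -1.35 ± 0.21, adjusted p = 5.2e-05). Laminin chains Lama4, Lamb3 and Lama2 changed by -1.86, -1.61 and -1.32 (adjusted p = 1.8e-07, 7.05e-05 and 1.17e-06), and Cd47, an integrin-associated protein, by -1.44 (adjusted p = 2.71e-07). Annexins and S100 proteins, which bind calcium and membranes, fell in 8 of 13 cases and rose in 0 by limma's adjusted p (median change -0.58, and -0.25 with ribosomal probe sets set equal), with 9 lower and 0 higher at an unadjusted p under 0.05. Anxa1 had log2 levels of 6.92, 7.76, 7.31 and 7.04 at LD2, against 9.82, 9.54, 9.51 and 9.44 at PD17 (log2 change -2.33 ± 0.27, adjusted p = 1.52e-06). Anxa2 and its partner S100a10 changed by -1.05 and -1.53, and Anxa4 by -1.34 (adjusted p = 2.01e-05, 7.26e-07 and 1.1e-07). Among 34 proteases and inhibitors 6 rose, 12 fell and 16 did not pass (median change -0.14, and 0.15 with ribosomal probe sets set equal). Ctsc, a lysosomal dipeptidyl peptidase, had log2 levels of 9.31, 9.33, 9.46 and 9.65 at LD2, against 7.22, 6.98, 7.18 and 7.23 at PD17 (log2 change 2.28 ± 0.17, adjusted p = 1.08e-08). Ctsz, another cathepsin, rose by 1.57 and the secreted inhibitor Cst3 by 1.13, while the cytosolic inhibitor Cstb and the serpin Serpina3n each fell by 1.65 on the log2 scale (adjusted p from 5.79e-08 to 8.91e-06).

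Markers of fibroblasts and of myoepithelial cells, the contractile basal epithelium, also fell. Fibroblast markers fell in 8 of 11 cases with 1 higher, and the log2 of their summed intensity was 12.23 to 12.71 at LD2 and 13.43 to 13.50 at PD17. Col1a2, a chain of type I collagen, had log2 levels of 9.62, 9.55, 9.07 and 8.86 at LD2, against 10.96, 10.96, 10.82 and 11.03 at PD17 (log2 change -1.67 ± 0.34, adjusted p = 0.000585), although a dim second probe set changed by 0.54 (adjusted p = 0.0135). Col6a3 and Col5a2 changed by -1.62 and -1.28 (adjusted p = 0.000338 and 0.000391). Myoepithelial markers fell in 4 of 6 cases, with a summed intensity, as log2, of 11.13 to 11.30 at LD2 and 11.95 to 12.25 at PD17. Mylk, myosin light chain kinase, changed by -1.36 and Acta2, smooth muscle actin, by -0.92 (adjusted p = 0.000378 and 0.000188). Adipocyte markers fell in 8 of 12 cases (5 without LD2 replicate 4) with 1 higher, and the log2 of their summed intensity of 12.94 to 13.36 at LD2 overlapped with 13.16 to 13.37 at PD17. Sncg and Lep, leptin, changed by -2.44 and -1.70 (adjusted p = 3.08e-06 and 6.89e-05), Adipoq, adiponectin, by -0.71 (adjusted p = 0.0153, and 0.0626 without LD2 replicate 4), and Thrsp, a lipogenic gene also used by the milk-secreting epithelium, rose by 0.87 (adjusted p = 0.000625). The part of these cell types in the falls of integrin, laminin, junction and protease genes was not tested.

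Markers of the milk-secreting epithelium were higher in sum on every LD2 array, at 17.31 to 17.39 against 16.90 to 17.06 at PD17, with 4 of 9 higher and 2 lower (1 lower without LD2 replicate 1, 3 or 4 or PD17 replicate 1 or 2). Their median change was 0.04 (-0.13 with array medians set equal), and the sum includes Lalba, whose mean log2 level was 14.75 at LD2 and 10.73 at PD17. Their structural member Krt8, a simple-epithelial keratin, fell by 1.07 on the log2 scale (adjusted p = 2.95e-07). Of 7 lymph node markers 2 were tested, 1 of them the milk gene Glycam1, and their summed level was 15.67 to 15.84 at LD2 and 15.51 to 15.67 at PD17. Lymphocyte markers, with 4 of 5 higher, were at 7.06 to 7.56 at LD2 and 6.40 to 6.92 at PD17, and hepatocyte markers, all 5 higher although the gland should lack them, at 9.57 to 10.17 at LD2 and 9.19 to 9.40 at PD17. The lymphocyte list includes the dim genes Ms4a1 and Cd79a, and of the 1827 dimmest tested genes 36.0% rose. Erythrocyte markers were at 10.89 to 11.71 at LD2 and 11.84 to 12.67 at PD17. Of the remaining lists, mast cell and neutrophil markers were at 7.71 to 7.82 at LD2 and 7.82 to 8.15 at PD17, brown adipocyte markers at 7.43 to 8.43 at LD2 and 7.24 to 7.44 at PD17, skeletal muscle markers at 6.52 to 6.68 at LD2 and 6.28 to 6.57 at PD17, and nerve markers at 7.35 to 7.47 at LD2 and 7.90 to 7.96 at PD17.

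Oxidant defence was mixed. Of 38 tested genes 5 rose, 12 fell and 21 did not pass (median change -0.18, and 0.15 with ribosomal probe sets set equal). Gpx3, the secreted glutathione peroxidase, rose by 1.35 ± 0.16 and Gsr, glutathione reductase, by 0.80 ± 0.18 (adjusted p = 1.75e-06 and 0.00134). Gpx4, which protects membranes from lipid peroxides, had log2 levels of 9.36, 9.61, 9.37 and 9.51 at LD2, against 10.51, 10.50, 10.63 and 10.50 at PD17 (log2 change -1.07 ± 0.13, adjusted p = 2.11e-06). Gstz1 changed by -1.29 and Aldh1a1, a retinaldehyde dehydrogenase, by -1.88 (adjusted p = 6.62e-05 and 0.000297), the last with LD2 values below the test line. Of 27 heat shock and chaperonin genes 6 rose, 3 fell and 18 did not pass (median change -0.01, and 0.33 with ribosomal probe sets set equal). Hspa4 changed by 0.57 (adjusted p = 0.000347), but another of its probe sets changed by -1.01 (adjusted p = 0.000736) and their mean by 0.02 (adjusted p = 0.893). Stip1, a co-chaperone, changed by 0.66 (adjusted p = 0.0141, and 0.0591 without LD2 replicate 1). Hspa8, the constitutive chaperone, did not pass (0.25, adjusted p = 0.391).

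Of 14 clock genes 2 rose and 1 fell (median change 0.07, and -0.21 with array medians set equal), with 2 falls without LD2 replicate 3 or without PD17 replicate 3. Rora, a nuclear receptor of the clock's stabilising loop, had log2 levels of 8.36, 8.94, 8.85 and 9.01 at LD2, against 7.49, 8.28, 7.24 and 7.54 at PD17 (log2 change 1.16 ± 0.21, adjusted p = 0.000235). Per2, a repressor of the clock, rose by 0.40 (adjusted p = 0.00191) at dim levels. Of 16 immunoglobulin and mucosal defence genes 6 rose, 2 fell and 8 did not pass (median change 0.32, and 0.17 with array medians set equal). Pigr, the receptor that carries dimeric IgA into milk, had log2 levels of 11.60, 11.92, 11.35 and 11.71 at LD2, against 11.10, 10.94, 10.25 and 11.04 at PD17. Its arrays did not overlap, but the log2 change of 0.81 ± 0.36 did not pass (adjusted p = 0.0659), and it passed in a fit of the 8 compared arrays alone (adjusted p = 0.00813). Igha, the IgA heavy chain, changed by 0.56 (adjusted p = 0.217) with overlapping arrays. The B cell genes Ms4a1 and Cd79a rose by 0.75 and 0.58 (adjusted p = 0.00589 and 0.0018), both at dim levels. Their mean log2 levels were 5.42 and 4.27 at LD2 and 4.67 and 3.69 at PD17, the last below the test line. Rises were common among dim genes, at 36.0% of the 1827 dimmest tested. Cd14, the co-receptor of lipopolysaccharide, changed by -0.79 (adjusted p = 0.000983).

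The genes that changed at least 2-fold were then placed in the time course by their mean levels alone. Of the 189 that rose (3.45% of those tested), the LD1 mean was nearer LD2 than PD17 for 144 (76.2%), and the LD9 mean for 123 (65.1%). Of the 393 that fell (7.17%), this held at LD1 for 264 (67.2%) and at LD9 for 375 (95.4%). The PD12 mean was on the PD17 side for 143 of the 189 rises (75.7%) and for 354 of the 393 falls (90.1%). Since the genes were chosen on LD2 and PD17, these counts are a description with no test.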

How the data were processed

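RNA of whole mammary tissue was measured on Affymetrix MG-U74Av2 arrays, each from an individual sample and not from a pool, per the labels' protocols. The deposited values were intensities on a linear scale, 1 per probe set and array, which the authors had summarised with GCRMA per the submitters' processing notes; its settings and version, and the set of arrays it was run on, are not given in the sources at hand. Intensities below 1 were set to 1 and converted to log2. Of 12422 probe sets without controls, those whose highest stage mean reached the median of all values (an intensity of 18.6, or 4.22 as log2, called the test line) were tested. limma 3.58.1 in R 4.3.3 (lmFit and eBayes) was fitted to the 20 time-course arrays, 4 at each of 5 stages, which gave 15 residual degrees of freedom. P-values were adjusted over all tested probe sets by Benjamini-Hochberg. The other 12 arrays, of diet groups and liver, were in no comparison here. Together with the time course they set the test line, the choice of each gene's probe set and the quantile normalization, which used all 32 arrays.

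The probe annotation gave 10833 probe sets a single gene, 396 several and 1193 none; 8251 genes remained, each represented by its brightest probe set. The probe sets of Itgb1, Anxa1, Gja1 and Rpl41 were also of the type that can detect related transcripts. Promoters came from RefSeq GRCm38.p6. Of 1417 genes in 44 lists, 1154 had a probe set and 900 were tested. The comparison, the lists and the rule for naming genes were chosen with earlier results of these data known. That rule took the 10 largest rises and falls without overlap, then from each list up to 5 genes that passed, by size of change, and up to 3 that did not, by level, and 16 genes listed by name. The text names 168 of the 305 genes it gave and 56 others, picked with their values in view. The fit was tested on simulated data. The alternatives were other filters, scalings, floors and summaries of a gene's probe sets, fewer arrays, a replicate block, and leaving out each of the 8 arrays.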

Additional observations from a re-analysis of the deposited data

Results flagged for a closer look

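Among the named genes, the 4 values of a stage were examined for 1 array far from the other 3, by the gap to the nearest array over the range of all 4. Of 448 such groups of 4, 19 (4.24%) were past Dixon's 95% limit, and chance passes about 1 in 20. By array they were 6 on LD2 array 1, 5 on LD2 array 2, 1 on LD2 array 4, 3 on PD17 array 1, 1 on PD17 array 2 and 3 on PD17 array 3.

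On the LD2 arrays the lone value was in 4 cases low. Array 1 had 14.57 for Csn1s2a, against 14.70 to 14.73 on the other 3 arrays of its stage, 6.95 for Stx3, against 7.28 to 7.34, and 7.75 for Sat1, against 8.31 to 8.36. Array 2 had 11.69 for Hspa5, against 11.77 to 11.79. High values on array 1 were 3.0 for Cd276, against 2.36 to 2.44, 4.86 for Cdkn1c, against 4.72 to 4.74, and 7.08 for Stip1, against 6.41 to 6.52. High values on array 2 were 8.79 for Vamp8, against 8.46 to 8.50, 10.53 for Cited2, against 9.74 to 9.83, 7.50 for Fkbp5, against 6.50 to 6.62, and 7.78 for Gstz1, against 7.36 to 7.42. Array 4 had 7.53 for Eif3e, against 7.05 to 7.13.

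Among the PD17 arrays, array 1 was high for 3 genes. It had 5.53 for Slc39a4, against 4.12 to 4.32, 14.49 for Csn1s2a, against 14.26 to 14.28, and 12.91 for Lcn2, against 12.40 to 12.47. Array 2 had 6.50 for Pik3r1, against 7.01 to 7.04. Array 3 had 3.92 for Gjb1, against 3.16 to 3.25, 4.50 for Cldn4, against 5.32 to 5.45, and 10.63 for Gpx4, against 10.50 to 10.51. All values are log2 levels.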

How the results depend on the processing

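The count of 3589 probe sets that passed, with 1830 higher, 1759 lower and 744 changed at least 2-fold, moved by over 1.5 times in these cases. With no filter on dim probe sets 7676 passed, 5819 higher and 1857 lower, of 12422 tested, so the added dim probe sets that passed were nearly all higher; the cause was not tested. With the filter at the 75th percentile 2107 passed, 704 higher and 1403 lower, of 3893 tested. Setting the ribosomal protein medians equal gave 3560 higher and 822 lower, and setting the array medians equal gave 861 higher and 2301 lower. Averaging all probe sets of a gene left 466 genes changed at least 2-fold of fewer features tested. Leaving out each of the 8 arrays in turn gave 3113 to 3516 that passed, 1521 to 1823 higher, 1563 to 1693 lower and 696 to 798 changed at least 2-fold. Quantile normalization, a floor at 16, a fit of the 8 arrays alone and a fit without lactation day 9 replicate 1 kept each count within 1.5 times.

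The labels number the replicates. Deviations of same-numbered arrays from their stage means had correlations of -0.05, 0.10, 0.09 and 0.09. Those of arrays with different numbers ran from -0.14 to 0.13. Values this small cannot decide whether the numbers pair the samples. With the replicate block 3595 passed, 1823 higher, 1772 lower and 744 at least 2-fold. Among named genes no call turned to the opposite direction. Of 51 other tested probe sets of named genes, 29 had the same call as the one reported and 2 the opposite call. Those of the rest that did not pass include dim probe sets of Arf3, Cst3, Pdia6 and Qsox1. Low signal limits the genes near the test line, such as Slc39a4, Kit and Cldn4 at LD2, where the size of a fall is bounded by background, and 4 arrays a stage limit the precision of the rest.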

Other observations

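Xist, the RNA that silences 1 X chromosome in female cells, belonged to no list and was singled out after its values were seen. It had log2 levels of 7.48, 7.53, 7.07 and 6.94 at LD2, against 9.15, 10.09, 9.85 and 9.81 at PD17, with no overlap (log2 change -2.47 ± 0.29, adjusted p = 1.83e-06). Its mean log2 levels at the other stages were 5.65 at PD12, 9.05 at LD1 and 7.31 at LD9.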
